A study of Mus musculus with 5 samples.

Results

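The replication histone genes encode the core histones H2A, H2B, H3 and H4 and the linker histone H1, and lie in clusters on a few chromosomes. Members were all protein-coding genes of the RefSeq GRCm38 gene table with a replication histone symbol, which gave 63 of 21887 protein-coding genes on assembled chromosomes: 6 for H1, 17 for H2A, 16 for H2B, 12 for H3 and 12 for H4. The table lists them under the newer symbols (H1f, H2ac, H2bc, H3c and H4c). No measured value entered this rule, but earlier results of these data were known when the members were chosen. The pseudogene H2ac14 was left out, and 4 further genes with an older Hist name (H4f16, H2bu2, H2aw and H4bc24) carry newer symbols that the rule does not take.

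Binding of KLF5, a zinc-finger transcription factor, was mapped by ChIP-seq in mouse embryonic stem (ES) cells of wild-type genotype, derived from C57B6/J mice and overexpressing V5-tagged KLF5. The anti-V5 immunoprecipitate of these cells is the library described here, with 23.2 M tags left after duplicates were removed. Its controls were a normal mouse IgG immunoprecipitate of the same cells (24.5 M tags) and an anti-V5 immunoprecipitate of wild-type, untagged ES-D3 cells (21.8 M tags), whose file header names the line JM8.N4 instead. Each peak list was called against input DNA, each group is 1 library, and nothing below has a replicate check. The promoter that drives V5-KLF5 and the level of overexpression are not given in the sources used here, and a list of peaks cannot show whether the cells expressed markers of ES cells.

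Replication histone genes are transcribed mainly in S phase, when new DNA must be packed into nucleosomes. Most have no intron, and their mRNAs end in a stem-loop bound by SLBP in place of a poly(A) tail. Transcription takes place in histone locus bodies, nuclear bodies organised by NPAT at the clusters. Many H2A and H2B genes stand head to head and share a divergent promoter. The clusters also hold variants of the germ line, among them the testis genes H2ac1, H2bc1 and H1f6.

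A V5-KLF5 summit, the highest point of a called peak, lay within 1 kb of an end of 26 of the 63 genes (41.3%, exact Clopper-Pearson 95% interval 29.0 to 54.4). Among all protein-coding genes the share was 50.5%. The classes differed in their counts: 5 of 6 H1 genes and 8 of 12 H4 genes had such a summit, as did 7 of 12 H3 genes, but 3 of 17 H2A and 3 of 16 H2B genes. The 26 genes rested on 28 distinct summits, of which 22 were in reach of 1 member, 5 of 2 members and 1 of 3 members. The interval covers counting error only and treats genes as independent, which neighbours with a common summit are not. Neither control list held a summit within 10 kb of any member: the IgG list held 3 peaks in all and the list of untagged cells 0.

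**Figure D1:**
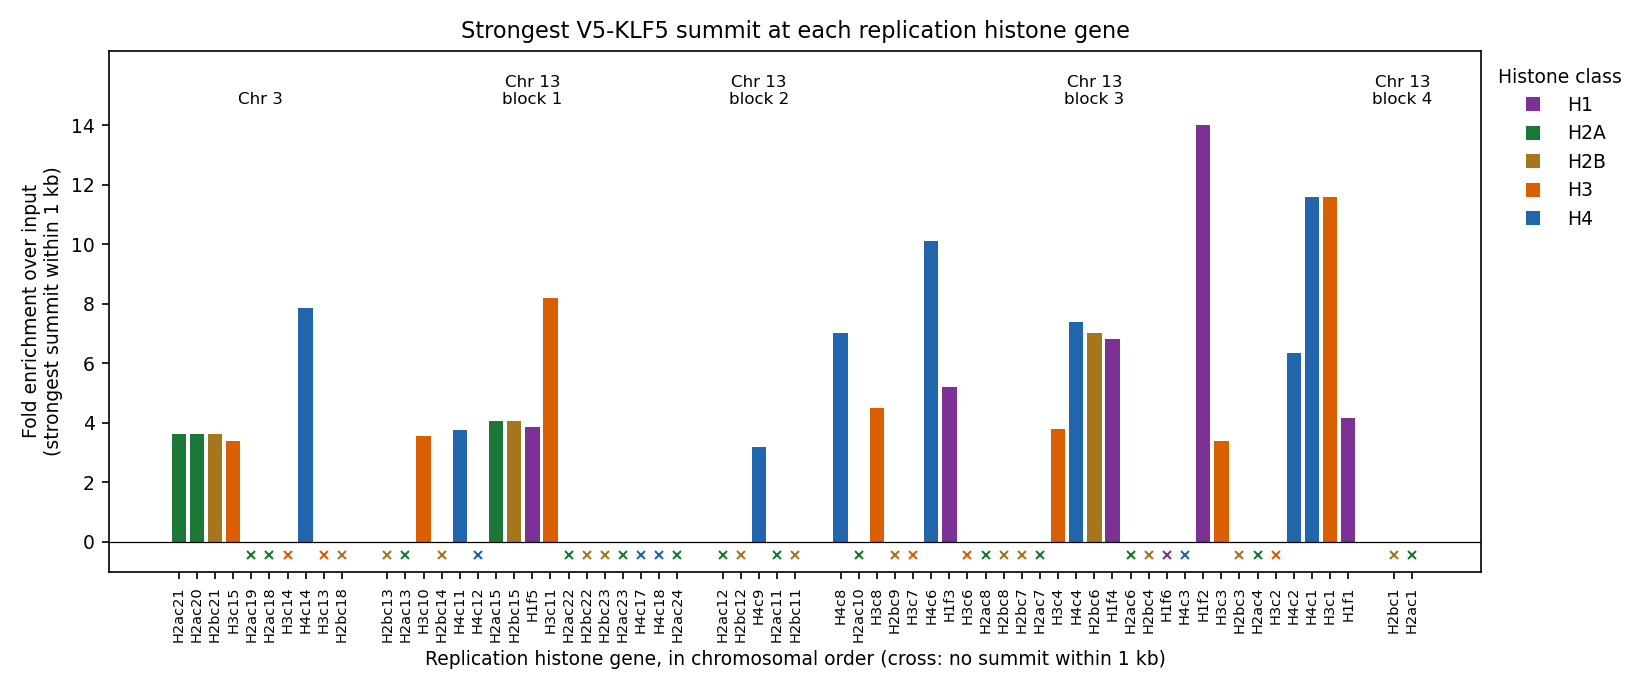
Bars give the fold enrichment over input of the strongest V5-KLF5 summit within 1 kb of each replication histone gene, in chromosomal order by cluster and coloured by class; crosses mark genes with no summit within 1 kb. Bars of 10 or more stand only at H1f2, H4c1, H3c1 and H4c6, all in the third block of chromosome 13, and H4c1 and H3c1 share 1 summit.

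The promoters of the genes with the 3 strongest summits, H1f2, H4c1 and H4c6, are shown beside that of H4c12, the first H4 gene by symbol with no summit within 1 kb. Each is the 250 bases before the annotated start, from RefSeq in GRCm38.p6, written 5′ to 3′ in the direction of the gene. H1f2 is at chr13:23738557-23738806 on the plus strand, and H4c1 at chr13:23761250-23761499, H4c6 at chr13:23551669-23551918 and H4c12 at chr13:21750554-21750803 on the minus strand. Capitals mark matches on either strand to 5 sets of letters: the KLF- and SP-type box CCNCNCCC, the shorter KLF-type box CACCC, the NF-Y box CCAAT, the TATA box written as TATAAA, and the octamer of H2B promoters written as ATTTGCAT. The shorter KLF-type box can overlap the longer one, and a match is a description of the letters, not a bound site. Matches were taken at any position, and other spellings of a box were not searched. TATAAA thus lies 250 to 245 bases before the start in H4c6, and 16 to 11 bases before it in H4c12.
H1f2: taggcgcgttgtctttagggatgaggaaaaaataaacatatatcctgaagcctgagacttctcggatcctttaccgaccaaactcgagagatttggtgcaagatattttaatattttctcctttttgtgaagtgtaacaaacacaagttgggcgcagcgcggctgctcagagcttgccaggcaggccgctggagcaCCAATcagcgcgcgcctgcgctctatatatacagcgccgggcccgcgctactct
H4c1: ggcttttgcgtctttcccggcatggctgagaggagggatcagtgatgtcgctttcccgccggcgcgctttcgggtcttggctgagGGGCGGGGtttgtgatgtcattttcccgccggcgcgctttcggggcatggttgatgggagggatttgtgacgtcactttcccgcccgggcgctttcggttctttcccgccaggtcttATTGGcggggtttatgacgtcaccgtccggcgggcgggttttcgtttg
H4c6: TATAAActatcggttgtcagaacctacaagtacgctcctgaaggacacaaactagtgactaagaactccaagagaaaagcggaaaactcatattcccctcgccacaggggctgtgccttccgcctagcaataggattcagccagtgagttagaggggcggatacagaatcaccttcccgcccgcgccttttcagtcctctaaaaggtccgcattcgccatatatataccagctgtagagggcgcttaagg
H4c12: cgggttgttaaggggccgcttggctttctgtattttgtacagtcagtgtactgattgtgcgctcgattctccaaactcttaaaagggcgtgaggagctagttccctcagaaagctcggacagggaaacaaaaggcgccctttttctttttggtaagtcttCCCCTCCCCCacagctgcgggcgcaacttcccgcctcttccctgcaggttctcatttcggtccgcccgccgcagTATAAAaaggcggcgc
Of these, H4c1 holds 1 match to CCNCNCCC, on the opposite strand 165 to 158 bases before the start. H4c12, with no summit within 1 kb, holds 2 overlapping matches between 90 and 81 bases before the start. H1f2 and H4c6 hold none in these bases, and neither they nor the other 2 hold CACCC.

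For each H1, H3 and H4 gene the values of the peak describe its strength. The deposited pileup is the height of stacked tags at the summit, and the input background is the height to be set against it. The deposited fold enrichment is the pileup divided by that background, with 1 added to each. The background itself was recovered here from the pileup and the fold enrichment. The strongest summit of the set belonged to H1f2, a linker histone gene, on chromosome 13 at 23738807 to 23739531. Its peak (23738909 to 23739937) had a pileup of 68 over a background of 3.93 and a fold enrichment of 14.0. That summit lay 22 bp beyond the 3′ end of the gene, 746 bp from its start. Summits at the other linker histone genes were weaker, with fold enrichments of 6.81 at H1f4, 5.19 at H1f3, 4.15 at H1f1 and 3.87 at H1f5. H1f4 had 1 summit at each end of the gene, the stronger 37 bp past the 3′ end and the weaker, with 4.74, 102 bp inside the start. H1f1 had 2 summits of equal fold enrichment, 217 bp inside the start and 540 bp past the 3′ end. H1f6, the testis linker histone, was the only H1 gene with no summit within 1 kb.

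H4 encodes one of the most conserved proteins, and several of its genes had a summit just before the start. H4c1 (23760795 to 23761249) had the second strongest summit of the set, with a pileup of 55 and a fold enrichment of 11.6, 249 bp before its start in a peak of 1934 bp. This summit was also 387 bp from an end of H3c1, which had no other within 1 kb. At H4c6 (23551286 to 23551668) the summit lay 102 bp before the start, with a pileup of 43 and a fold enrichment of 10.1. These 3 were the only ones of the 28 summits with a fold enrichment of at least 10. H4c4 had its strongest summit 84 bp before the start with 7.38, and another with 5.10 at 502 bp past the 3′ end. H4c8 had summits on both sides, with 5.59 at 54 bp before the start and 7.03 at 36 bp past the 3′ end. At H4c2 the summit, with 6.35, lay 169 bp past the 3′ end. H4c14, the only H4 gene of the chromosome 3 cluster, had 7.86 at a summit 44 bp from an end. H4c11 and H4c9 had weak summits past the 3′ end, with 3.75 and 3.18. The 4 H4 genes with no summit within 1 kb were H4c12, H4c17, H4c18 and H4c3.

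Among the H3 genes, H3c1 had the strongest summit, the one it shared with H4c1. H3c11, in another block, came next: its summit 642 bp before the start of H3c11 had a pileup of 45 and a fold enrichment of 8.21. H3c11 also had a summit with 3.21 that lay 81 bp past its 3′ end. The other 5 had values close to each other: 4.49 at H3c8, 3.78 at H3c4, 3.57 at H3c10, and 3.39 at both H3c3 and H3c15. All 5 of these summits lay past the 3′ end, at distances of 380, 498, 19, 186 and 225 bp in the same order. H3c2, H3c6, H3c7, H3c13 and H3c14 had no summit within 1 kb, though each had one within 10 kb.

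H2A and H2B genes, which encode the partners of the H2A-H2B dimer, had summits within 1 kb at 6 of 33 genes (18.2%), from 5 distinct summits. Of these genes, H2ac20, H2ac21 and H2bc21 on chromosome 3 shared a summit with a fold enrichment of 3.61, which lay 78 bp before the start of H2ac20. A further summit, with 3.10, lay 86 bp inside the start of H2ac21 and was also within 1 kb of H2ac20. H2ac15 and H2bc15 shared a summit with 4.07 between their starts. The strongest, with 7.01, was that of H2bc6, whose gene model spans 37455 bp. Both summits counted for H2bc6 were shared, that with 7.01 with H4c4 and that with 6.81 with H1f4. No H2A or H2B gene had a summit within 1 kb with a fold enrichment of at least 10, where 1 H1, 1 H3 and 2 H4 genes had one and the share of all protein-coding genes was 9.06%. The difference between classes was not tested, since the genes are not replicates.

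Head-to-head pairs, with starts within 500 bp of each other, were looked at as such. Starts and strands were taken from the promoter table, which holds 58 of the 63 members. Of these, 18 genes formed 9 divergent pairs, all of 1 H2A and 1 H2B gene, with starts 164 to 281 bp apart (median 180). Members outside that table have no strand here and could not be paired. Among them, H2bc21 begins at 96221072 on chromosome 3, beside H2ac20 with its start at 96220880. The summit with a fold enrichment of 3.61, at 96220958, lies between these genes. H2bc4, also of no known strand, begins at 23684199 on chromosome 13, beside the minus-strand H2ac6 at 23683473 to 23683959. Neither H2bc4 nor H2ac6 had a summit within 10 kb. Only 1 of the 9 pairs, H2ac15 and H2bc15, had a summit between its starts, and the other 8 had none within 1 kb of either gene. The bases between the starts of that pair (chr13:21753913-21754075) are shown beside those of H2ac11 and H2bc11 (chr13:22042950-22043197). The latter is the first pair by symbol with no summit within 1 kb, among the blocks that have one at another gene. Both are written in the direction of the H2B gene, on the plus strand, with the same matches in capitals, and were chosen after the values were seen.
H2bc15: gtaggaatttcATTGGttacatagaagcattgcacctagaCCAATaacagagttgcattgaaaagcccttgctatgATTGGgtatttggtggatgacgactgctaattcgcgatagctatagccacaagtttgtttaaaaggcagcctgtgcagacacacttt
H2bc11: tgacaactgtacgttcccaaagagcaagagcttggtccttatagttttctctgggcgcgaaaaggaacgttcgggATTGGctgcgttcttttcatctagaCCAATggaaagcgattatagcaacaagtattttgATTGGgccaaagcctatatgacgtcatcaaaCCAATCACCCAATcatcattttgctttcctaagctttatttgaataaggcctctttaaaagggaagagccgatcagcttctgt
The spacer of H2ac15 and H2bc15 holds 3 matches to CCAAT and none to CCNCNCCC or CACCC. That of H2ac11 and H2bc11 holds 5 matches to CCAAT and 1 to CACCC, 78 to 74 bases before the start of H2bc11.

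The position of the summits along the genes was set beside that at other genes, with no test. Each of the 28 summits was placed at its nearest member of known strand, which was possible for 27. Of these, 7 lay before the start, 5 inside the gene and 15 past the 3′ end. For H3 the counts were 1, 0 and 6, and for H4 4, 0 and 5. The 5 summits inside a gene were at H1f1, H1f3, H1f4, H1f5 and H2ac21. Counted once per gene and summit, 19 of 32 pairs (59.4%) were nearer to the 3′ end than to the start, against 12.9% of 11089 such pairs at other protein-coding genes. A replication histone gene has a median length of 492 bp, against 17169 bp for all protein-coding genes, and 58 of the 63 are at most 1 kb long. Among other genes of up to 1 kb the share was 17.0% of 47 pairs. A start of transcription lay under a called peak at 10 of the 58 members (17.2%) and at 41.5% of 17434 other genes. Among other genes of up to 1 kb the order turned, with 27 of 1298 starts (2.08%) under a peak. Of all 1519 other genes of that length, 1001 are chemoreceptor genes, and 0.300% of these had a summit within 1 kb. The share of starts under a peak was not computed without them.

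**Figure D2:**
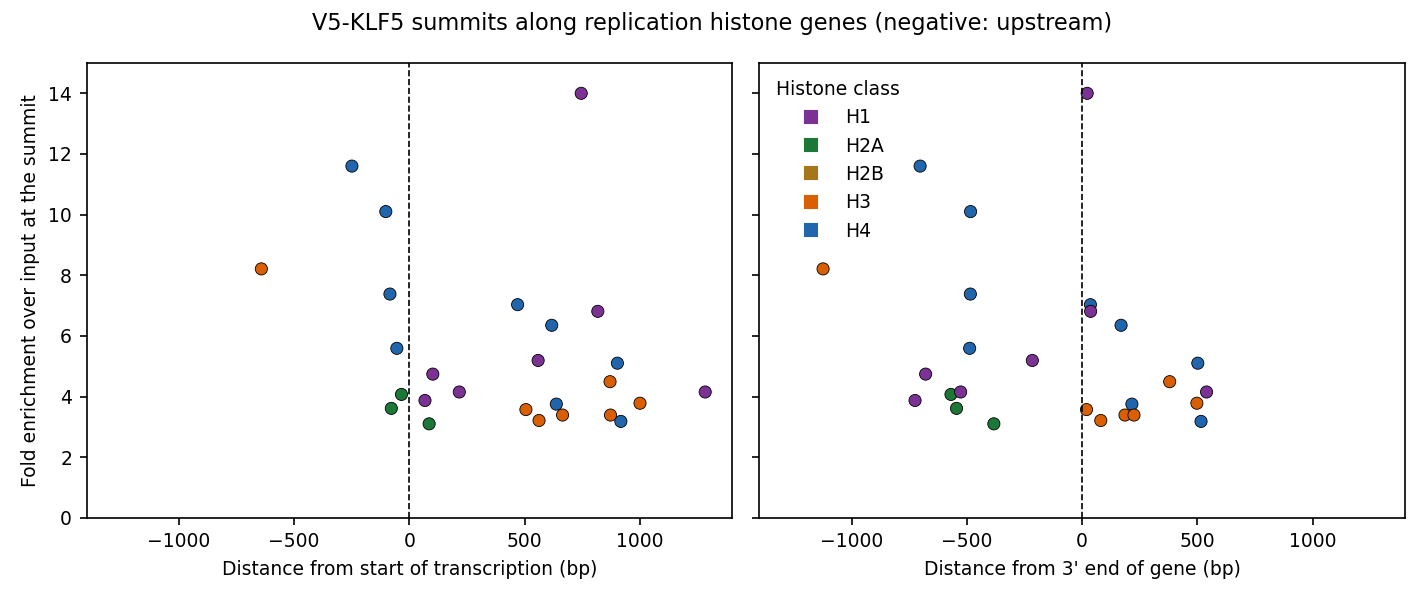
Each point is a V5-KLF5 summit within 1 kb of a replication histone gene of known strand and at most 1 kb long, by its distance in bp from the start of transcription (left) or from the 3′ end (right) and its fold enrichment over input, coloured by class. Among H4 genes a group just before the start, up to 11.6, stands apart from a group past the 3′ end, and all but 1 of the H3 summits lie past the 3′ end.

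Many genes of a core histone class have near-identical coding sequences, while the H1 genes and the testis variants differ more. The treatment of reads with more than 1 possible position is not given in words in the sources used here, and the file headers name the aligned reads with the tag m1. The part of such reads in the counts by class and position was not tested. The input gives a measure at the called summits alone: its background ran from 3.10 to 6.13 under the 28 summits, with a median of 3.83, against a median of 3.45 and a 95th percentile of 6.13 at the 12071 summits within 1 kb of any protein-coding gene. The value 3.10 is the floor of the background over all peaks. Rounding aside, the background was above this floor at 25 of the 28 summits (89.3%), against 65.2% of the 12071. Fold enrichment and pileup of the 28 had medians of 4.62 and 20.5, against 5.59 and 26. The strongest summit per member had a median fold enrichment of 4.32, against 6.10 over all protein-coding genes with a summit within 1 kb. With a −log10 q of at least 10 these medians were 7.86 over 11 members and 7.85 over all such genes. That cut itself removes weak summits, and it kept 11 of the 26 members and 6914 of the 11047 genes. These medians therefore cannot show whether the lower value of members goes away. With a fold enrichment of at least 10 they were 11.6 over 4 members and 12.4 over all such genes. By pileup with no cut they were 22 and 29.

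**Figure D3:**
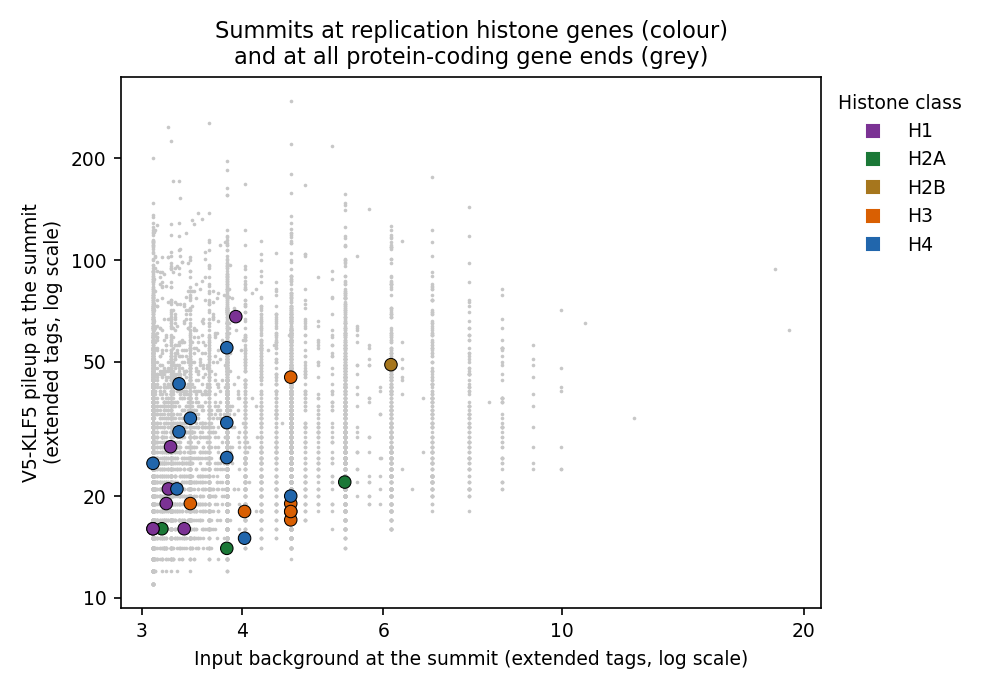
Pileup of V5-KLF5 tags against input background, both at the summit in extended tags on log scales, for the 28 summits within 1 kb of replication histone genes (colour, by class of the nearest gene) and the 12071 within 1 kb of any protein-coding gene (grey). The coloured points lie within the grey ones, with pileups of 14 to 68 and backgrounds of 3.10 to 6.13.

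By location, the counts varied from block to block. Members were split into blocks wherever a gap between neighbours exceeded 100 kb, which gave 1 block on chromosome 3 and 4 on chromosome 13. The chromosome 3 cluster (96219885 to 96270192) had summits within 1 kb at 5 of 10 genes, from 4 distinct summits. On chromosome 13, the first block (21715711 to 21833475) had them at 6 of 17 genes from 6 summits, and the second (22035122 to 22043658) at 1 of 5 from 1 summit. The third and largest block (23531044 to 23764412) had them at 14 of 29 genes from 17 summits. Its median strongest summit was 6.91, against 3.61 on chromosome 3 and 3.97 in the first block. The fourth block (23933725 to 23934913), the testis pair H2ac1 and H2bc1, had none, and its nearest summits were 56312 and 57069 bp away.

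Within 10 kb, 54 of 63 genes (85.7%, interval 74.6 to 93.3) had a summit, against 68.2% of all protein-coding genes. Windows of neighbouring members overlap, and these 54 genes rested on 39 summits. When a summit counted only for the gene whose end was nearest, 28 members (44.4%) had one, against 59.8% of all genes, so the order turned. For 38 of the 39 summits the nearest gene was a member, and the exception lay nearest to Trim38. Of the 39 summits, 28 lay within 1 kb of a member and the rest were farther than 1 kb from every member. The strongest of these farther summits, with a fold enrichment of 8.65, lay 5619 bp from H2bc13 on its 3′ side. The next, with 6.59, lay 7449 bp from H2bc11. At the edge of the 1 kb window the farthest member inside was H2bc6 at 616 bp and the nearest outside H2ac13 at 1275 bp. At that of 10 kb they were H3c7 at 6816 bp and H4c17 at 16468 bp.

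The 9 genes with no summit within 10 kb were neighbours. H2bc23, H2ac23 and H4c17 lay together in the first block of chromosome 13, with the nearest summit 18419, 17700 and 16468 bp away. H2ac6, H2bc4, H1f6 and H4c3 lay together in the third block, with nearest summits at 55594, 47073, 43008 and 41095 bp. The iron-homeostasis gene Hfe, the only other protein-coding gene lying inside a block, is beside H4c3 and had no summit within 10 kb either. H2ac1 and H2bc1 made up the rest.

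**Figure D4:**
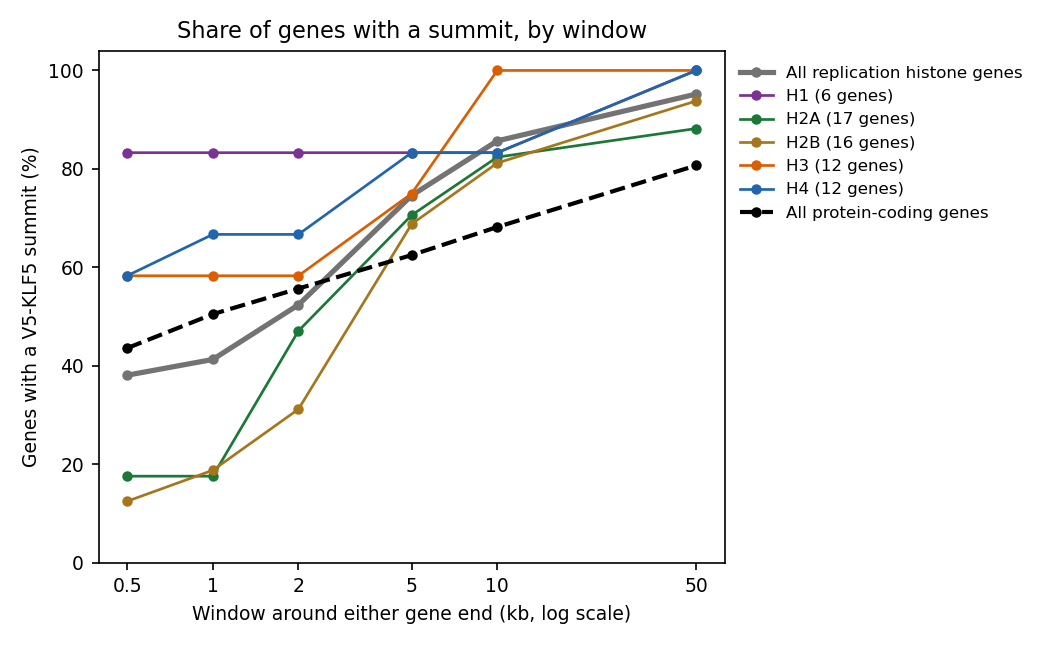
Share of genes (%) with a V5-KLF5 summit within a window of either gene end (kb, log scale), for all replication histone genes (grey), each class (colour; H1 lies under H4 from 5 kb on) and all protein-coding genes (dashed). H2A and H2B lie at 17.6% and 18.8% at 1 kb, below the 50.5% of all genes, and at 82.4% and 81.2% at 10 kb, above the 68.2%.

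The share grew with the window more steeply for members than for all protein-coding genes. Within 500 bp it was 38.1% of members against 43.6% of all genes, and within 2 kb 52.4% against 55.7%. Within 5 kb it was 74.6% against 62.5%, and within 50 kb 95.2% against 80.7%. The share of members was below that of all genes up to 2 kb and above it from 5 kb on.

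Summits were also joined to genes in other ways. Overlap of the called interval with the 1 kb window gave 26 of 63 members against 52.4% of all genes, and distance from the start alone gave 22 of 58 against 51.7%. With each summit given to its nearest gene only, 23 members had one within 1 kb against 45.9%. A stricter threshold left fewer members. With a −log10 q of at least 10, 11 members (17.5%) had a summit within 1 kb against 31.6%, and 37 had one within 10 kb against 50.9%. The 11 were 6 of 12 H4, 2 of 6 H1, 2 of 12 H3, 1 of 16 H2B and 0 of 17 H2A genes. With a fold enrichment of at least 10, 14 members had a summit within 10 kb (22.2%), against 19.4% of all genes.

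Gene length and density were set beside these shares because members are short and crowded. Members had a median of 20 other gene ends within 50 kb, against 4 for all protein-coding genes. At the 347 other genes with at least 20, a summit lay within 1 kb of 48.7% and within 10 kb of 72.0%. Other protein-coding genes of up to 1 kb had a summit within 1 kb in 3.09% of 1519 cases. Most of those, 1001, are olfactory, vomeronasal, taste or trace-amine receptor genes, and without them the share was 8.49% of 518. Of the 58 members of up to 1 kb, 24 had a summit within 1 kb. Within 10 kb it was 51 of these 58, against 8.62% of the other short genes and 19.1% of the 518 without those receptor genes.

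Promoter letters differed between the classes. In the windows of 300 bases (250 before the start and 50 from it on) CCAAT was found at all 47 H1, H2A, H2B and H3 members of the table but at 3 of 11 H4 members, against 37.4% of all 32851 promoters. TATAAA, at any position of the window and on either strand, was found at 34 of 58 members (58.6%), against 13.6%. The octamer ATTTGCAT was found at 7 of 14 H2B and 6 of 17 H2A members and at no H1, H3 or H4 member, against 1.74%. Pairs share these bases, so the H2A and H2B counts are not separate.

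The KLF-type letters CCNCNCCC were found at 23 of 58 members (39.7%), against 49.5% of all promoters, and CACCC at 19 (32.8%), against 57.5%. CCNCNCCC was most frequent at H4, with 9 of 11, and was found at 2 of 6 H1, 7 of 17 H2A, 2 of 14 H2B and 3 of 10 H3 members. It was found at 12 of 23 members with a summit within 1 kb (52.2%) and at 11 of 35 without (31.4%). For CACCC these counts were 7 of 23 and 12 of 35. Such pooled counts mix classes that differ both in these letters and in their summits. Within H4, CCNCNCCC was found at every member without a summit within 1 kb (H4c12, H4c17, H4c18 and H4c3). H4c4 and H4c6, with a summit, lacked it. A link between the letters and the summits was not tested. Since many summits lay past the 3′ end, outside these windows, the promoter letters do not describe the bases under them. The median GC content was 45.7% in members with a summit and 45.0% in those without, against 52.7% for all promoters.

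Other histone genes and their regulators were set beside the members, each list being described by its count beside the 50.5% of all protein-coding genes. Of 13 replication-independent histone genes, which are expressed outside S phase as well or in special chromatin, 9 had a summit within 1 kb, with a median strongest fold enrichment of 5.98. The strongest were at H2ax, the histone of DNA damage signalling, with 7.93, and at the H2A.Z genes H2az2 and H2az1, with 6.52 and 6.35. The oocyte linker histone H1f8 had none within 10 kb.

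Factors of replication histone expression had a summit within 1 kb at 21 of 24 genes, with a median of 9.56, and at all 24 within 10 kb. Pou2f1, which encodes the octamer-binding factor OCT1, led with 25.0, followed by Hinfp, a zinc-finger activator of H4 genes, with 13.5 and Cramp1l with 12.3. Npat, the organiser of histone locus bodies, was the lowest of the 21 with 3.93, and Slbp had 10.1. Histone chaperones, which carry newly made histones to DNA, had a summit within 1 kb at 10 of 15 genes, with a median of 8.37, led by Mcm2 with 18.1, Hira with 12.0 and Tonsl with 10.7. Asf1a had none within 10 kb. Of the 4 histone genes with an older Hist name outside the rule, H4f16 and H2aw had summits within 1 kb, with 5.37 and 5.61, and H2bu2 and H4bc24 had none.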

How the data were processed

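Peaks came from the deposited lists of 3 ChIP-seq libraries, called by the authors with MACS2 2.1.0.20140616, per the file headers: tags of 51 bp extended to 250 bp, 1 tag per position, single libraries against input, q cutoff 0.05. The submitters' processing notes name mm10 and Bowtie 0.12.8. The deposited values are the pileup signal, the −log10 p-value, the −log10 q-value and a fold ratio, per the file headers. Input background was recovered here from pileup and fold, each taken with 1 added, and a Poisson test on it gave the deposited p within 1% for 99.98% of peaks. Apart from this background, values are the authors' for each peak and only describe or rank them.

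Gene ends came from RefSeq GRCm38.p6 and starts and strands from its promoter table (58 of 63 members). Coordinates are 1-based. Distances were computed with Python 3.11.15 and pandas 2.3.3, on code tested on simulated summits. The members, the gene lists and the naming rule (the 20 strongest members, those with no summit within 10 kb, and the 3 strongest of each list) were chosen with earlier results of these data known. No test was run, since each group is 1 library. Alternatives were a fold enrichment of at least 10, a −log10 q of at least 10, peak overlap, starts, other windows, nearest gene only and pileup. Those on genes of up to 1 kb and on gene density, and the pair spacers, were added after seeing the data.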

Additional observations from a re-analysis of the deposited data

How the results depend on the processing

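Of 27 alternative values, 18 stayed within 1.5 times of the reported value. The counts of members within 1 kb were 22 to 33 of 58 or 63 genes under peak overlap, starts in place of ends, windows of 500 bp or 2 kb, nearest gene only and members of up to 1 kb. With a fold enrichment of at least 10, 4 members had a summit within 1 kb, from 3 distinct summits with a median strongest value of 11.6, and 14 within 10 kb. With a −log10 q of at least 10 these were 11 members and 11 summits, against 31.6% of all protein-coding genes, and the median was 7.86, against 7.85 over all genes. With nearest gene only, 28 members had a summit within 10 kb. The pileup in place of the fold enrichment gave a median of 22, in another unit, against 29 over all genes. In each of these settings within 1 kb the share of members stayed below that of all protein-coding genes, except for members and other genes of up to 1 kb. Within 10 kb it stayed above, except with nearest gene only. No paired analysis was possible because each group is 1 library. Depth limits weak peaks: a summit below the calling threshold is not in the lists.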
